A study of Mus musculus with 12 samples.

Results

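Homing and adhesion receptors were followed through 9 genes taken by name: the chemotactic receptors *Cxcr4*, *Ccr7* and *S1pr1*, the integrin subunits *Itgal*, *Itga4*, *Itgb1*, *Itgb2* and *Itgb7*, and the hyaluronan receptor *Cd44*. All 9 were found among the 41444 genes of the expression table. RNA-seq was performed on 12 samples in 4 groups of 3, and 2 of these groups are compared here. Both were pre-B cells from bone marrow of *Ctnnb1* fl/fl mice, grown with IL-7, transformed with the *BCR-ABL1* oncogene by a retrovirus and then kept without IL-7. Both carried the ERT2 vector without Cre, which leaves the floxed β-catenin alleles in place, and both received 1 µM 4-OHT for 2 days. The treated group also received 40 nM LY2090314, a small-molecule inhibitor of GSK3β, for 1 day according to the labels, whereas the study's text gives a shorter exposure for this experiment. No vehicle, age or sex is given for these cells. The Cre-ERT2 groups are not analysed here, so whether a change needs β-catenin was not tested.

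Leukemic B cell precursors enter, settle in and leave bone marrow with receptors of this kind. CXCR4 and CCR7 are G protein-coupled receptors that follow the chemokines CXCL12 and CCL19 or CCL21, and S1PR1 follows sphingosine 1-phosphate out of tissues into blood. Integrins are pairs of an α and a β chain: *Itgal* and *Itgb2* encode LFA-1, which binds ICAM molecules, and *Itga4* pairs with *Itgb1* to bind VCAM1 and fibronectin or with *Itgb7* to bind MADCAM1. CD44 is a glycoprotein that binds hyaluronan in the matrix.

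Levels are on the rlog scale, a log2 transformation of counts that corrects for library size. It draws genes with few reads towards their own mean, which understates their differences. The depth of the libraries is unknown. The treated libraries A and B come from columns that share a library number, and the third is called C here. A and B differed from each other by an SD of 0.186 across genes, and each differed from C by 0.253, against 0.185 to 0.239 for pairs of control libraries. Over the 8 receptors with a mean of at least 3, the median absolute difference was 0.026 between A and B, 0.089 between A and C and 0.161 between B and C, so A and B were closer to each other than to C. They were counted as separate samples, and with their mean used as 1 sample the same number of receptors, 7, was called. Of the 11536 genes that had a mean of at least 3, 24.8% were higher and 25.3% lower with LY2090314 at an adjusted p under 0.05, 50.1% in either direction. The labelled cell type was checked with 16 B-lineage precursor markers. All 16 passed the limit on the mean, and 11 of them were lower and 3 higher with LY2090314. *Pax5* was at 14.05 in control cells and at 12.51 with LY2090314 (adjusted p = 9.8e-06 from limma).

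The regulatory sequence in front of the start site is shown for 3 receptors that rose and for *Itgb1*, which did not pass the test. RefSeq promoter windows were found for 5 of the 9 genes, and none was found for *Ccr7*, *S1pr1*, *Itgal* and *Itgb2*. The lines give 250 bases before the RefSeq start of the gene, 5′ to 3′ on the strand of the gene, from GRCm38.p6. They lie at chr2:102901666-102901915 on the minus strand for *Cd44*, chr1:128592300-128592549 on the minus strand for *Cxcr4*, chr2:79255176-79255425 on the plus strand for *Itga4* and chr8:128685404-128685653 on the plus strand for *Itgb1*. Capitals mark TGGGAA, a longer form of the Ikaros core GGGAA that the study names, or its reverse complement TTCCCA.
Cd44: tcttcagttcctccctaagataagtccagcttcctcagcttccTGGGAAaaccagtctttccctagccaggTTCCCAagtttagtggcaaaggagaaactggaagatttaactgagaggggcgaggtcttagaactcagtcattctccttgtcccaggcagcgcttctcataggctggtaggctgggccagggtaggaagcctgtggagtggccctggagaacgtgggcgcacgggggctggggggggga
Cxcr4: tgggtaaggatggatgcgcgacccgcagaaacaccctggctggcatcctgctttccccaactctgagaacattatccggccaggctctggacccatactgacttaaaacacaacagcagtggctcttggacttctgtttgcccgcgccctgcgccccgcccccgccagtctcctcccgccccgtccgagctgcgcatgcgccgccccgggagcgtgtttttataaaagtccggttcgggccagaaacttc
Itga4: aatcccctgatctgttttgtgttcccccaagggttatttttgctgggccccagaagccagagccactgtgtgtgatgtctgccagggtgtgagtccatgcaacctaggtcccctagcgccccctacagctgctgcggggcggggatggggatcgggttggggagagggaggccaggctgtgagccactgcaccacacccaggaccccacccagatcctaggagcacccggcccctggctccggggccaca
Itgb1: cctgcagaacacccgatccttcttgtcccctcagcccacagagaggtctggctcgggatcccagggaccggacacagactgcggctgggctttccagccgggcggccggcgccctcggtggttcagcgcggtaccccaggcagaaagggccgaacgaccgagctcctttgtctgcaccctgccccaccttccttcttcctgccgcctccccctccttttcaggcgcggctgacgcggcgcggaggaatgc

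TGGGAA was found at 2 places in the *Cd44* window, positions −207 and −179 from the start site and on opposite strands. It was found in 1 of the 5 windows of these receptors. Of 32851 RefSeq windows of 300 bases, 25.6% hold it on either strand. The shorter core GGGAA was not counted, in these windows or in all windows. Its reverse complement TTCCC also occurs unmarked in the printed *Cxcr4* and *Itga4* lines and at another place in the *Cd44* line. The TCF/LEF core was searched as CTTTGAA and, in other forms that share its first letters, as CTTTGAT, further as CTTTGTA and finally as CTTTGTT. It was found in 0 of the 5 windows and in 16.9% of all windows on either strand. The FOXO core TGTTTAC was also found in 0 of the 5 and in 3.65% of all. These are matches of letters in a short window and carry no measurement of binding.

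LY2090314 was accompanied by higher transcript levels of most of these receptors. Of the 8 genes that could be tested, 7 were higher at an adjusted p under 0.05 (limma with Benjamini-Hochberg adjustment over all genes tested), where 24.8% of all genes were, and 0 were lower. *Ccr7*, *Itga4* and *Cxcr4* rose by more than 1 on the log2 scale, which 4.14% of all genes did past the same threshold (6.01% in either direction). The groups did not overlap for the 7 genes, all higher, where 29.1% of all genes were higher and 29.5% lower without overlap, 58.6% together. The median log2 difference of the 8 genes was 0.76, and that of all 11536 genes was 0.012. The receptors were chosen with earlier results of these data known, so these counts describe them and are no test of the group. *Itgb1* did not pass, and *Itgb7* lay under the limit on the mean and was not tested. Each of the 8 tested genes had a mean over 3 in the control group alone, so none entered the test through the treated group.

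**Figure D1:**
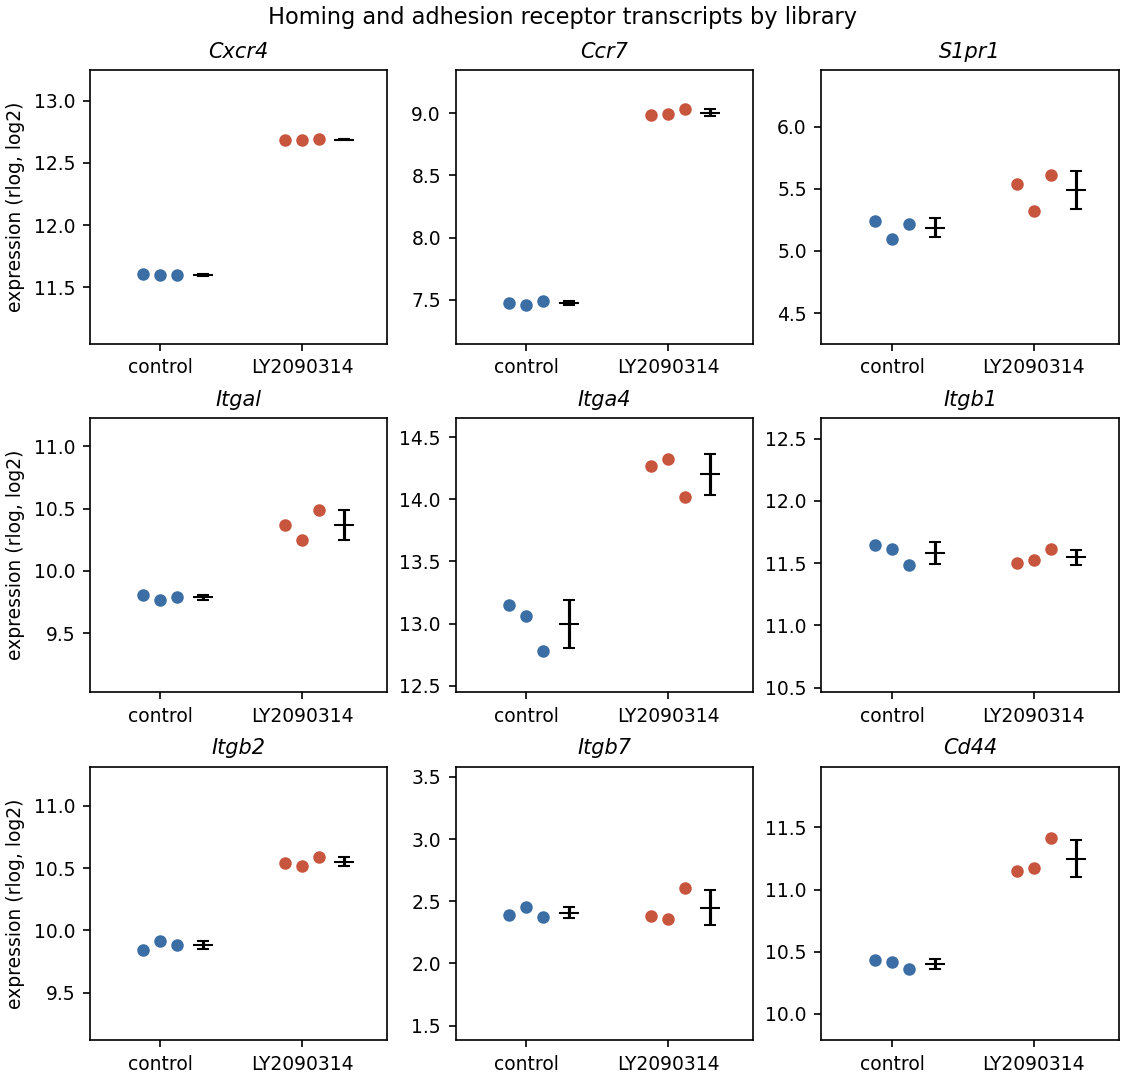
Expression of the 9 receptor transcripts in rlog units (log2 scale, each panel spanning the same height) in 3 control libraries (blue) and 3 LY2090314 libraries (red; A, B and C from left to right), with black bars for the mean ± SD. The groups do not overlap for *Cxcr4*, *Ccr7*, *S1pr1*, *Itgal*, *Itga4*, *Itgb2* and *Cd44*, and they overlap for *Itgb1* and *Itgb7*.

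Among the chemotactic receptors, *Ccr7* changed most. *Ccr7* (ENSMUSG00000037944, chromosome 11 of GRCm38, 99144196 to 99155077, minus strand) was at 7.47, 7.46 and 7.49 in the control libraries and at 8.99, 8.99 and 9.04 in the treated libraries. All 3 treated libraries were therefore far above all 3 control libraries, with little spread in either group. *Ccr7* rose by 1.53 on the log2 scale (standard error 0.064, 95% confidence interval 1.38 to 1.68, adjusted p = 1.1e-06 from limma), a 2.89-fold higher level. Of all genes tested, 1.91% had a higher difference.

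*Cxcr4* (ENSMUSG00000045382, chromosome 1, 128588199 to 128592293, minus strand) encodes the receptor that holds B cell precursors in CXCL12-rich marrow niches. It was at 11.61, 11.60 and 11.60 in the control libraries and at 12.68, 12.69 and 12.70 with LY2090314. The spread within each group was very small, at 11.60 ± 0.0054 (SD, n = 3) against 12.69 ± 0.0071 (SD, n = 3). *Cxcr4* rose by 1.09 (standard error 0.041, 95% confidence interval 0.99 to 1.18, adjusted p = 6.7e-07 from limma), a 2.13-fold higher level. *Cxcl12*, the gene for its ligand, was listed at 0 in every library.

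*S1pr1* (ENSMUSG00000045092, chromosome 3, 115710433 to 115715072, minus strand), the egress receptor, was expressed at a much lower level. It was at 5.24, 5.10 and 5.22 in control libraries and at 5.54, 5.32 and 5.61 in treated libraries, so the groups were separated by only 0.075 between the nearest samples. Its log2 difference of 0.30 (standard error 0.10, 95% confidence interval 0.060 to 0.54) just passed the threshold, with an adjusted p of 0.043 from limma. The call was lost without control library a (adjusted p = 0.069, limma), b (0.13) or c (0.077) and without treated library A (0.11) or C (0.10), and it held without B (0.022). With quantile normalization the difference was 0.18 (adjusted p = 0.21, limma).

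**Figure D2:**
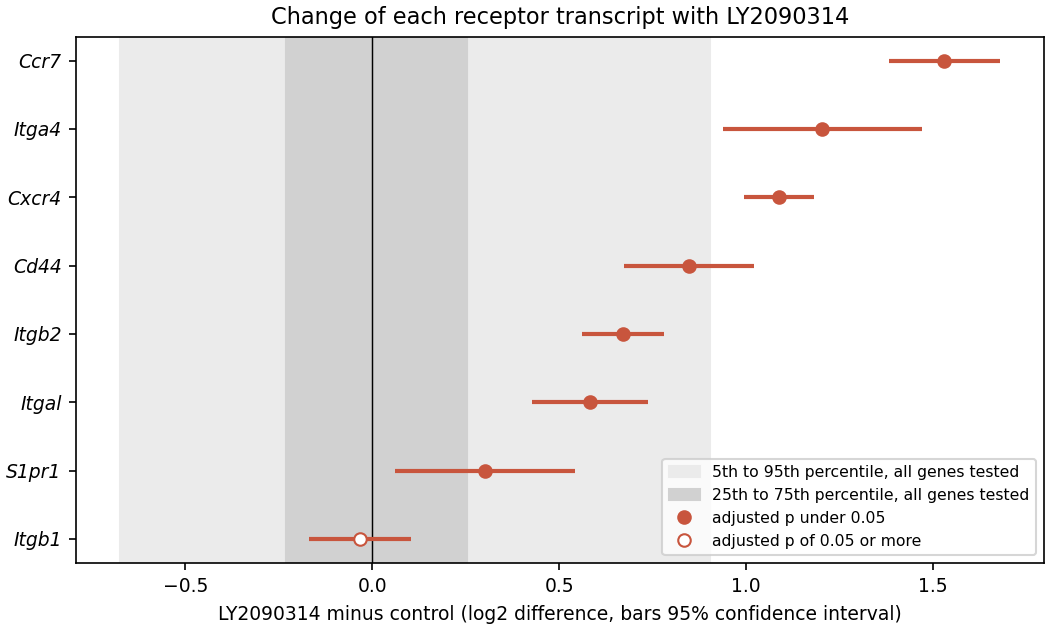
Log2 difference between LY2090314 and control (horizontal axis) for the 8 receptor genes tested, with bars for the 95% confidence interval from limma, filled points for an adjusted p under 0.05 and grey bands for the middle of all 11536 genes. *Ccr7*, *Itga4* and *Cxcr4* lie above the 95th percentile of all genes, which is 0.90, and *Itgb1* lies next to 0.

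The integrin genes divided by subunit. Both chains of LFA-1 rose by similar amounts. Of the α4 integrins the α chain rose, the β chain *Itgb1* did not pass and the β chain *Itgb7* was not tested. *Itgal* (ENSMUSG00000030830, chromosome 7, 127296260 to 127335138, plus strand) was at 9.81, 9.76 and 9.79 in the control libraries and at 10.37, 10.25 and 10.49 with LY2090314, an increase of 0.58 (standard error 0.067, adjusted p = 0.00024 from limma). *Itgb2* (ENSMUSG00000000290, chromosome 10, 77530252 to 77565708, plus strand), the β chain shared by the leukocyte integrins, went from 9.84, 9.91 and 9.88 to 10.54, 10.52 and 10.59. Its increase was 0.67 (standard error 0.047, adjusted p = 1.7e-05 from limma), and the groups of both genes were apart in all libraries. On the linear scale the levels were 1.50-fold higher for *Itgal* and 1.59-fold higher for *Itgb2*.

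*Itga4* (ENSMUSG00000027009, chromosome 2, 79255426 to 79333123, plus strand) had the largest change among the integrin subunits of the 9 genes. It was at 13.15, 13.06 and 12.78 in control libraries and at 14.27, 14.32 and 14.02 in treated libraries. Its spread was wider than that of *Cxcr4*, with SDs of 0.19 and 0.16 (n = 3 each), and the lowest treated library still lay 0.86 above the highest control library. *Itga4* rose by 1.20 (standard error 0.11, 95% confidence interval 0.94 to 1.47, adjusted p = 8.9e-05 from limma), a 2.30-fold higher level. It shares 1124 bases of exon sequence with *Cerkl* on the other strand. *Cerkl* was at 5.69 ± 0.12 in control and 5.81 ± 0.11 in treated libraries (SD, n = 3 each; adjusted p = 0.35 from limma), far under the level of *Itga4*.

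*Itgb1* (ENSMUSG00000025809, chromosome 8, 128685654 to 128733200, plus strand) encodes the β chain shared by the largest group of integrins. It was at 11.65, 11.61 and 11.48 in control libraries and at 11.50, 11.53 and 11.61 in treated libraries, which overlap. Its log2 difference of −0.03 had a 95% confidence interval from −0.17 to 0.10 (adjusted p = 0.67 from limma), which is 0.889-fold to 1.07-fold on the linear scale. *Itgb7* (ENSMUSG00000001281, chromosome 15, 102215995 to 102231944, minus strand) lay between 2.37 and 2.46 in control and between 2.36 and 2.61 in treated libraries, also overlapping. At this level rlog values are strongly drawn together, and a change of *Itgb7* was not detectable.

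Partner chains were then compared within each library, which removes any scaling of the library. *Itgal* minus *Itgb2* was −0.04, −0.15 and −0.10 in control libraries and −0.17, −0.27 and −0.10 in treated libraries, a change of −0.09 that lies within overlapping groups (exact two-sided permutation test, p = 0.20). *Itga4* minus *Itgb1* was 1.50, 1.45 and 1.30 in control libraries and 2.77, 2.79 and 2.40 in treated libraries. This difference grew by 1.24 with LY2090314, with no overlap between groups (exact two-sided permutation test, p = 0.10, the smallest value that 3 against 3 samples allow). The unequal change of α4 and β1 was therefore larger than the spread between libraries, although this permutation test cannot pass 0.05 with 3 against 3 samples. *Itga4* minus *Itgb7* grew by 1.16 (exact permutation p = 0.10), where the level of *Itgb7* is near the floor of the table.

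**Figure D3:**
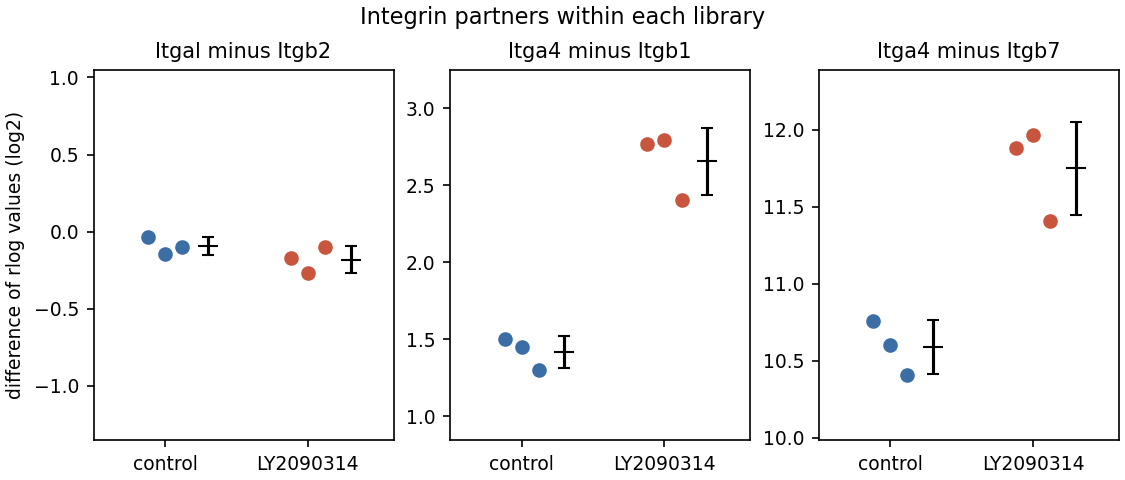
Difference between the rlog values of 2 integrin chains in the same library (log2 scale, each panel spanning the same height), for control (blue) and LY2090314 libraries (red), with black bars for the mean ± SD (n = 3). *Itgal* minus *Itgb2* overlaps between groups, while *Itga4* minus *Itgb1* moves from a mean of 1.42 to 2.65 and *Itga4* minus *Itgb7* from 10.59 to 11.75.

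*Cd44* (ENSMUSG00000005087, chromosome 2, 102811141 to 102901665, minus strand) was at 10.43, 10.41 and 10.36 in the control libraries and at 11.15, 11.17 and 11.42 with LY2090314. Treated library C was the highest, and all 3 treated libraries were above the controls. *Cd44* rose by 0.85 (standard error 0.075, 95% confidence interval 0.67 to 1.02, adjusted p = 5.9e-05 from limma), a 1.80-fold higher level. The table holds 1 value for the whole gene, so its splice variants cannot be told apart.

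Levels of different genes were set side by side per exon length, as the rlog value minus log2 of the merged exon length in kilobases. In control cells the order was *Cxcr4* (10.75), *Itgb1* (9.55), *Itga4* (9.19), *Itgb2* (8.27), *Cd44* (7.64), *Itgal* (7.07), *Ccr7* (6.49), *S1pr1* (3.58) and *Itgb7* (0.94), and no neighbours overlapped between libraries on this scale. With LY2090314, *Itga4* (10.40) stood above *Itgb1* (9.52) and *Ccr7* (8.02) above *Itgal* (7.65). *Cxcr4* stayed the highest at 11.83. The control order of *Itga4* and *Itgb1* depends on the length used: with the longest coding transcript instead of all merged exons, *Itga4* was above *Itgb1* by 0.061 in control cells as well. In treated cells, *Ccr7* then exceeded *Itgal* by only 0.037.

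**Figure D4:**
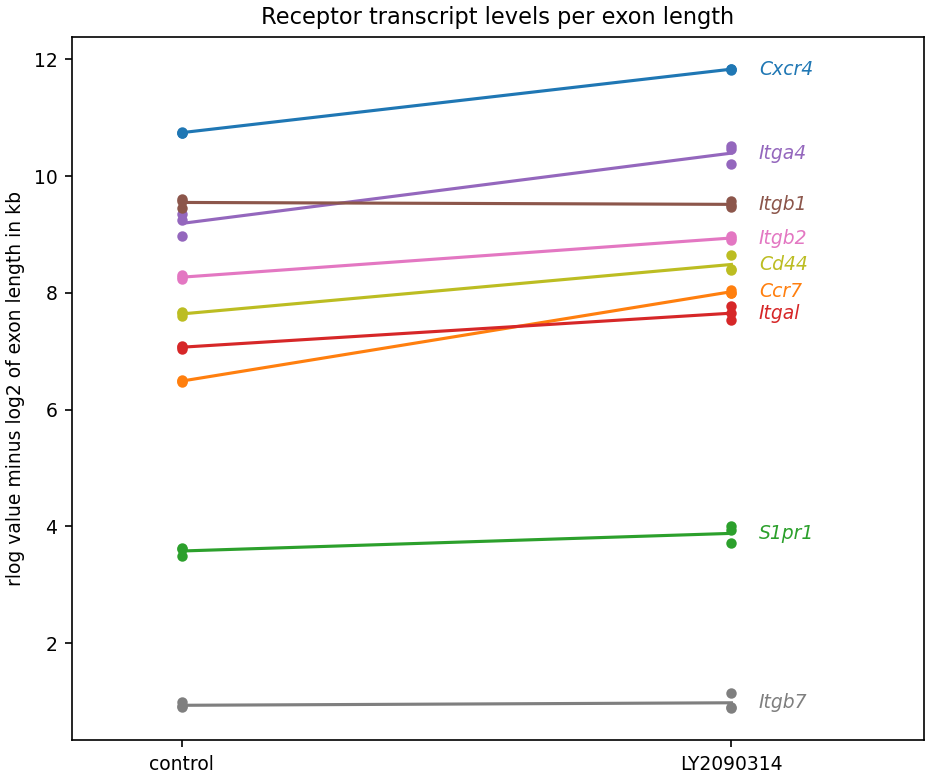
Level of each receptor transcript per exon length (vertical axis, rlog value minus log2 of the merged exon length in kb) in 3 control and 3 LY2090314 libraries (points), with lines joining the means. The lines of *Itga4* and *Itgb1* cross, as do those of *Ccr7* and *Itgal*, while *S1pr1* and *Itgb7* stay lowest.

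The other genes of homing and adhesion were taken from 8 lists that leave out the 9 receptors. These lists were also chosen with earlier results of these data known, so their counts are description only. Of their 210 genes, 148 were tested, and 70 were higher and 36 lower with LY2090314 at an adjusted p under 0.05 (limma). The background was 24.8% higher and 25.3% lower over all genes, and the counts of each list below are to be read beside these shares. Without genes that share exon bases with another gene, 52 of 98 were higher and 19 lower.

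Other chemotactic receptors included the strongest changes of all the lists. Of 9 tested genes in a list of 21, 4 were higher and 2 lower (24.8% and 25.3% over all genes), with a median log2 difference of 0.21. *Cxcr5*, which guides B cells to follicles, went from 7.63, 7.85 and 7.84 to 11.10, 11.12 and 11.32, a rise of 3.40 (standard error 0.087, adjusted p = 8.7e-08 from limma). *Ccr2*, a receptor best known from monocytes, rose by 2.88. *Ccr2* belongs to a family of similar genes, so its value is uncertain where reads could be shared. Among the sphingosine 1-phosphate receptors, *S1pr3* fell by 0.84 and *S1pr4* by 0.51 (adjusted p = 0.00029 and 0.0018 from limma), while *S1pr2* differed by 0.21 and did not pass. *S1pr3*, *S1pr4* and *S1pr2* were chosen after their values were seen.

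Of 6 tested integrin subunits outside the 9 genes, 4 were higher, 1 was lower and 1 did not pass. Over all genes 24.8% were higher and 25.3% lower. *Itga9*, a partner of the β1 chain, was at 7.43, 7.79 and 7.33 in control and at 10.19, 10.32 and 10.00 in treated libraries, a rise of 2.65 (standard error 0.13, adjusted p = 2.7e-06 from limma). The collagen-binding chain *Itga1* rose by 1.02 and the laminin-binding chain *Itga6* by 0.79. These α chains, named for the size of their change, and *Itga4* thus rose in the same libraries in which *Itgb1* stayed within its spread. *Itga5*, the α chain of the classical fibronectin receptor, fell by 0.78 (adjusted p = 0.0013 from limma), and it too was chosen after its value was seen.

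Of 22 tested adhesion molecules, 10 were higher and 5 lower (median difference 0.17), against 24.8% higher and 25.3% lower over all genes. The tetraspanin gene *Cd82* rose by 2.24 from 8.43 ± 0.11 to 10.68 ± 0.13 (SD, n = 3 each; adjusted p = 6.7e-07 from limma), and the junctional adhesion gene *Jaml* rose by 2.06. In the list of ligands and counter-receptors, 4 of 8 tested genes were higher and 1 was lower. *Cd93*, a surface glycoprotein of early B cells, rose by 0.83, the sphingosine 1-phosphate exporter *Spns2* rose by 0.71, and *Spp1*, which encodes osteopontin, fell by 0.87. *Vcam1* and *Madcam1*, ligands of the α4 integrins, were listed at 0 in every library, and *Icam1*, a ligand of LFA-1, differed by 0.05 (adjusted p = 0.53 from limma).

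Genes that switch integrins on and tie them to actin moved in both directions, as genes of the whole table did. Of 32 tested, 13 were higher and 8 lower, with a median of 0.03. Over all genes 24.8% were higher and 25.3% lower, with a median of 0.012, so falls were about as common in this list as elsewhere. *Rasgrp2*, an exchange factor that activates RAP1, was at 11.67, 11.73 and 11.85 in control and at 10.18, 10.23 and 10.18 in treated libraries, a fall of 1.55 (standard error 0.058, adjusted p = 6.6e-07 from limma). *Arap1*, which inactivates small GTPases of the ARF family, fell by 0.78, and *Ptk2b*, the kinase PYK2, rose by 0.80. *Tln1*, the gene of talin that binds β chains, differed by 0.03 (adjusted p = 0.83 from limma).

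Of 40 tested genes of chemokine receptor signalling and desensitization, 20 were higher and 8 lower (median 0.17), against 24.8% and 25.3% over all genes. *Pik3r5*, a regulatory subunit of PI3Kγ, rose by 2.44 and *Rgs1*, which shortens signalling of Gαi-coupled receptors, by 1.87. The RAC exchange factor *Tiam1* fell by 1.77. *Rgs1* was uneven between libraries, at 4.81 ± 0.31 in control and 6.69 ± 0.32 in treated cells (SD, n = 3 each).

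Of 18 tested transcription factors of homing receptor genes, 11 were higher and 4 lower (median 0.21), against 24.8% and 25.3% over all genes. *Tcf7*, a DNA-binding partner of β-catenin, rose by 2.62, *Ikzf3*, an Ikaros factor, by 1.06 and *Runx1* by 1.04. *Ikzf1*, another Ikaros factor of this list, fell by 0.23 (adjusted p = 0.0062 from limma). *Ikzf1* was chosen after its value was seen. Genes of receptor shedding and glycosylation were mostly lower, with 7 of 13 tested falling and 4 rising (median −0.32), and the 3 largest changes were nevertheless rises. *Mmp14* and *Adam10*, proteases that can cleave CD44, rose by 1.34 and 1.12, and *Dpp4*, a peptidase that can cut CXCL12, rose by 1.02. *Adam17*, another protease gene of this list, differed by 0.10 and did not pass (adjusted p = 0.26 from limma). *Adam17* was chosen after its value was seen. Some of the genes named from these lists share exon bases with another annotated gene, and reads of such pairs may not be separable. The other gene lies on the same strand for *Itga1*, *Spp1* and *Arap1*. It lies on the opposite strand for *Cxcr5*, *Jaml*, *Spns2*, *Rasgrp2*, *Runx1*, *Dpp4*, *Adam17*, *S1pr3*, *Itgav*, *Icam1*, *Vcam1* and *Tln1*. The libraries were described as stranded, so reads of opposite strands can be told apart if the quantification used the strand.

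**Figure D5:**
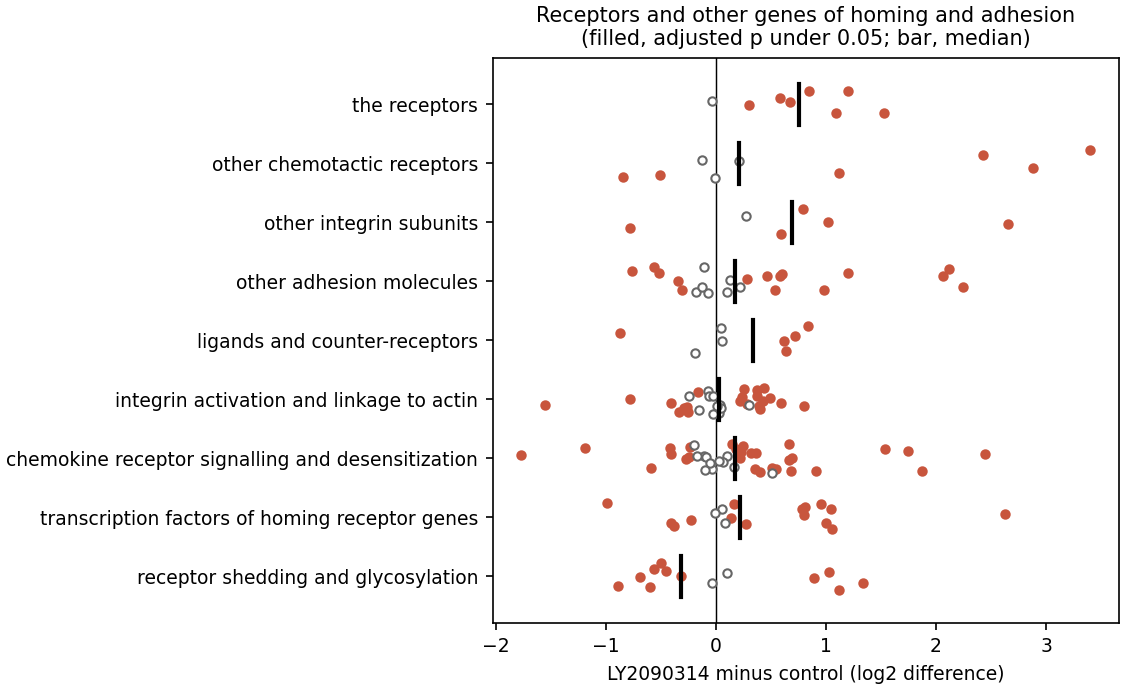
Log2 difference between LY2090314 and control (horizontal axis) for the 8 receptors tested and for the tested genes of 8 other lists, with filled points for an adjusted p under 0.05, open points for the rest and black bars for medians. The receptors have a median of 0.76, the integrin activation genes one of 0.03 and the shedding and glycosylation genes one of −0.32.

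Markers of cell types were measured in the same libraries. Of the 16 B-lineage precursor markers, 11 were lower and 3 higher with LY2090314, and the log2 of their summed level lay between 16.89 and 16.91 in control and between 16.49 and 16.63 in treated libraries. Of 12 T cell markers, 4 were tested and all 4 were higher (*Cd28*, *Zap70*, *Tcf7* and *Cd5*), and the log2 of the summed level lay between 8.70 and 8.84 in control and 11.41 and 11.50 in treated libraries. The defining T cell genes *Cd3e*, *Cd3d*, *Cd3g*, *Cd4*, *Cd8a*, *Cd8b1*, *Trac* and *Cd247* were under the limit on the mean, with no T cell marker below that limit above 2.04 in any library. Of 13 myeloid markers, *Ly6g* and *Lyz2* were tested and higher, with log2 sums of 6.07 to 6.26 and 7.40 to 7.46, while *Mpo*, *Elane*, *Ctsg*, *S100a8*, *S100a9* and *Adgre1* were listed at 0. Of 12 stromal and endothelial markers only *Pecam1*, which is also in the list of adhesion molecules, was tested; it was higher, with log2 sums of 10.47 to 10.55 and 11.61 to 11.78, and *Cxcl12*, *Pdgfra*, *Col1a2*, *Col3a1* and *Vcam1* were listed at 0. None of the 9 erythroid and megakaryocyte markers passed the limit, with log2 sums of 3.70 to 3.78 and 3.66 to 3.68, and *Hba-a1*, *Epor*, *Pf4* and *Ppbp* were listed at 0. The part of the shift in B-lineage markers in the receptor changes was not tested. In bulk RNA, fewer cells with a transcript and less of it in each cell cannot be told apart.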

How the data were processed

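RNA-seq was described for 12 samples in 4 groups. Per the labels and the study's methods, polyadenylated RNA was sequenced as stranded paired-end libraries, transcripts were quantified with Salmon, reads were aligned with STAR to GRCm38 (GENCODE vM24), and DESeq2 1.30.1 was used. The authors deposited 1 table of log2 values (rlog) for 41444 genes; which samples and options entered the transformation is not given in the sources used here. Columns were matched to groups by name alone. Of 12 columns, 6 were used, and 6 whose names combine Cre and LY match no single group and were not used. The study's text gives 3 mice per group, but the column names do not tie libraries to mice, so p-values measure only the spread between these libraries.

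Genes with a mean of at least 3 over the 6 samples (11536) were fitted in limma 3.58.1 under R 4.3.3 (lmFit and eBayes, trend = TRUE). P-values were adjusted over all these genes by Benjamini-Hochberg, with a threshold of 0.05. Members were read out of this fit. Exact permutation tests were made with scipy 1.17.1. The fit was run on simulated independent values in which far fewer genes changed than here, so that check does not bear on the p-values of these libraries. Symbols were matched to 41157 genes, and positions, exon lengths and overlaps come from GENCODE vM21 of the same build. The members and gene lists were chosen with earlier results of these data known. From each list the 3 genes with the largest called difference and no overlap between groups are named, except a few genes that are not reported here. Alternatives were another variance model, other limits on the mean, median centring, quantile normalization, leaving out each library, averaging libraries A and B, a threshold of 0.01 and a log2 difference of at least 1; a second gene length was added after seeing the data.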

Additional observations from a re-analysis of the deposited data

How the results depend on the processing

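The limit of 1 on the log2 difference moved the counts most: it left 693 of 5778 genes over the whole table, 3 of the 7 receptors and 24 of the 106 other genes of homing and adhesion. Under the other settings the number of receptors called was 6 or 7, *S1pr1* being the one that was lost. With each library left out in turn, between 4741 and 6225 genes, between 6 and 7 receptors and between 97 and 112 other genes were called, the median difference of the receptors lay between 0.71 and 0.79, and *Itga4* minus *Itgb1* grew by 1.17 to 1.36, *Itga4* minus *Itgb7* by 1.05 to 1.33, and *Itgal* minus *Itgb2* changed by −0.13 to −0.04. The adjusted p of *S1pr1* (limma) ranged from 0.022 to 0.21 and passed in 3 of 12 alternatives; without a lower limit on the mean it was 0.08, with a limit of 5 it was 0.052 and with median centring 0.064. Averaging libraries A and B left 4940 genes and 7 receptors. The other 32 genes with their own value kept their direction where called and their side of the threshold. With the length of the longest coding transcript, an alternative chosen after seeing the data, *Itga4* stood above *Itgb1* in control cells by 0.061 instead of below it by a difference of −0.36. No paired analysis was possible because no column could be matched to a numbered sample title. Scaling moved the median difference of all genes to at most −0.037, from 0.012. The depth of the libraries is unknown, which limits what can be said of *S1pr1* and *Itgb7*.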

Other observations

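The genes in this paragraph were chosen after their values were seen. *Cd69*, whose protein removes S1PR1 from the cell surface, was at 8.34, 8.42 and 8.35 in control libraries and at 10.10, 10.09 and 10.16 with LY2090314, a rise of 1.74 (standard error 0.056, adjusted p = 3e-07 from limma). *Klf2*, a transcription factor of *S1pr1*, fell by 0.41 from a low level of 4.38 (adjusted p = 0.018 from limma). *Foxo1*, which is needed for *Ccr7* and *Il7r* expression in lymphocytes, rose by 0.27 (adjusted p = 0.0072 from limma), and *Il7r* rose by 0.35 (adjusted p = 0.00075 from limma). *Il7r* is 1 of the 3 B-lineage markers that were higher. Of the 11 that were lower, *Rag1* fell by 1.93 and *Rag2* by 1.81 (adjusted p = 1.5e-05 and 4.1e-06 from limma). Whether *Foxo1* has a part in the change of *Ccr7* was not tested. *Lef1*, like *Tcf7* a DNA-binding partner of β-catenin, rose by 0.80 (adjusted p = 0.00016 from limma).

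*Ctnnb1*, the floxed gene, is intact in both groups and its transcript was at 12.19 ± 0.0042 in control and 11.85 ± 0.025 in treated libraries (SD, n = 3 each), a difference of −0.35 (adjusted p = 0.0003 from limma). Integrin chains of the αv and β3 kind were weakly or unevenly expressed: *Itgb3* went from 3.59 to 4.18 (adjusted p = 0.0022 from limma), and *Itgav* lay between 8.52 and 9.28 in control and between 8.97 and 9.53 in treated libraries (adjusted p = 0.35 from limma). *Foxo1*, *Rag1*, *Rag2*, *Lef1*, *Ctnnb1* and *Itgav* share exon bases with another annotated gene.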
